A study of Homo sapiens with 12 samples.

Results

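The genes described here encode proteins of the tight and adherens junctions, the belts of contact that hold epithelial cells together and close the space between them. The 10 genes CLDN1, CLDN3, CLDN4, CLDN7, OCLN, TJP1, F11R, CDH1, CTNNB1 and CTNND1 were chosen by name, and each was read from the probe set that carried its symbol alone and had the highest mean over all 12 arrays. This gave 7 measured genes among 18417 in the table. OCLN and CTNND1 had only probe sets that carried a further symbol, so no gene level is given for them, and F11R was not analysed here. Each of the 7 genes had 1 probe set.

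The cells were Calu-3, an established human line of airway epithelium, and all of them were transfected with an oligonucleotide by means of a lipid reagent. On 6 arrays this was NC1, a scrambled control RNA, on 3 arrays a small interfering RNA against SIN3A, and on 3 arrays a synthetic mimic of miR-138, a microRNA. The SIN3A protein holds together a co-repressor complex with histone deacetylases, and the title of the study speaks of a microRNA network that acts on the chloride channel CFTR. Untransfected cells were not among the arrays. The sources used here give neither dose nor time after transfection, and the extraction notes speak of primary cultures while the other labels name the cell line. The arrays are labelled as biological replicates, but separate cultures are not mentioned. The p-values therefore reflect only the variation among these arrays, which may be technical.

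In a tight junction, claudins and occludin cross the membrane and set which ions and molecules pass between cells, and the adaptor ZO-1 ties them to actin. In an adherens junction, E-cadherin joins neighbouring cells, beta-catenin and p120-catenin bind its tail, and alpha-catenin links the whole to actin. Airway epithelium relies on both to keep salt and water gradients, and loss of E-cadherin is a hallmark of the transition from epithelial to mesenchymal cells. A microRNA lowers mRNAs through pairing of its seed with sites that lie mostly in the 3′ untranslated region. The mature miR-138 sequence is shown because its seed decides which mRNAs the mimic could pair with. It was taken from RefSeq (GRCh38.p14), with the seed, bases 2 to 8 from the 5′ end, in capitals.
hsa-miR-138-5p: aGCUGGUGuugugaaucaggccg
The same mature sequence of 23 bases is listed for both genes of this microRNA, MIR138-1 at chr3:44114234-44114256 and MIR138-2 at chr16:56858527-56858549, each on the plus strand. The labels do not say which arm the mimic carried. Seed matches in the junction mRNAs were not searched here.

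The values are in log2 units, as deposited, with array medians between 5.09 and 5.16. SIN3A mRNA fell after both treatments, from 6.91 ± 0.36 (SD, n = 6) with NC1. It was at 6.03 ± 0.14 (SD, n = 3) with the siRNA (limma adjusted p = 0.0111). With the mimic it was at 6.08 ± 0.16 (SD, n = 3, limma adjusted p = 0.0304). Leaving out each array in turn, the difference from all NC1 arrays stayed negative, at -0.996 to -0.799 (siRNA) and -0.945 to -0.747 (mimic). The siRNA call (adjusted p under 0.05) was lost in 2 of these runs and the mimic call in 7. The 6 NC1 arrays formed a pair of parts, NC1 1 to 3 and NC1 4 to 6, with a mean correlation across genes of 0.976 between these parts and of 0.983 and 0.990 within them, genes not being independent replicates. Relative to NC1 1 to 3 the SIN3A difference was -0.59 with the siRNA and -0.54 with the mimic, and relative to NC1 4 to 6 it was -1.18 and -1.12. Both parts are therefore kept apart beside the comparison with all NC1 arrays. NC1 3 and NC1 6 also stood apart from the other 10 arrays, with the highest array medians (5.15 and 5.16, against 5.09 to 5.13), and over all genes their deviations from the mean of their own part correlated at 0.44. Values without these 2 arrays are given for each named gene whose call they change. The 4 simple epithelial markers EPCAM, KRT8, KRT18 and KRT19 averaged 9.02 to 9.30 on every array. The measured fibroblast markers averaged 4.32 to 4.60, the endothelial markers 4.50 to 4.70 and the ciliated markers 4.35 to 4.74. The basal and squamous markers averaged 5.055 to 5.357 and the leukocyte markers 5.15 to 5.33, among them LYZ at 8.37 to 9.14. With either treatment 0 genes of the 6 marker lists were called, against 4.01% (siRNA) and 1.04% (mimic) of all genes.

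None of the measured claudin, adaptor, cadherin and catenin genes passed the test under either treatment. With SIN3A siRNA 0 of the 7 genes passed the test (limma, Benjamini-Hochberg adjusted p under 0.05 over all 18417 genes), while 4.01% of all genes did. With the miR-138 mimic it was also 0 of 7, against 1.04% of all genes, and between mimic and siRNA 0 of 7, against 1.57%. At an unadjusted p under 0.05 the counts were 0, 1 and 0 of 7, where 16.4%, 11.3% and 13.6% of all genes lay. The largest change that any of the 7 intervals (95%, limma fit) allowed was 1.26-fold with the siRNA (CLDN4), 1.33-fold with the mimic (TJP1) and 1.29-fold between the treatments (CLDN3). The intervals of the other genes ended at smaller changes. Against a single NC1 part the intervals allowed up to 1.31-fold with the siRNA and 1.41-fold with the mimic (TJP1). OCLN is outside these counts. The probe set it shares with a pseudogene was lower with the siRNA by -0.63 (limma adjusted p = 0.0797 over all 33297 probe sets) and is described at the end. This difference was larger than that of any of the 7 genes with the siRNA. Its adjusted p comes from another test than theirs, in which 1.43% of probe sets were called, so the same threshold is not equally strict. It was not tested among the 18417 genes. In such bulk RNA fewer cells that express a gene and less RNA per cell cannot be told apart. The comparisons of siRNA and mimic with NC1 share their control arrays.

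**Figure D1:**
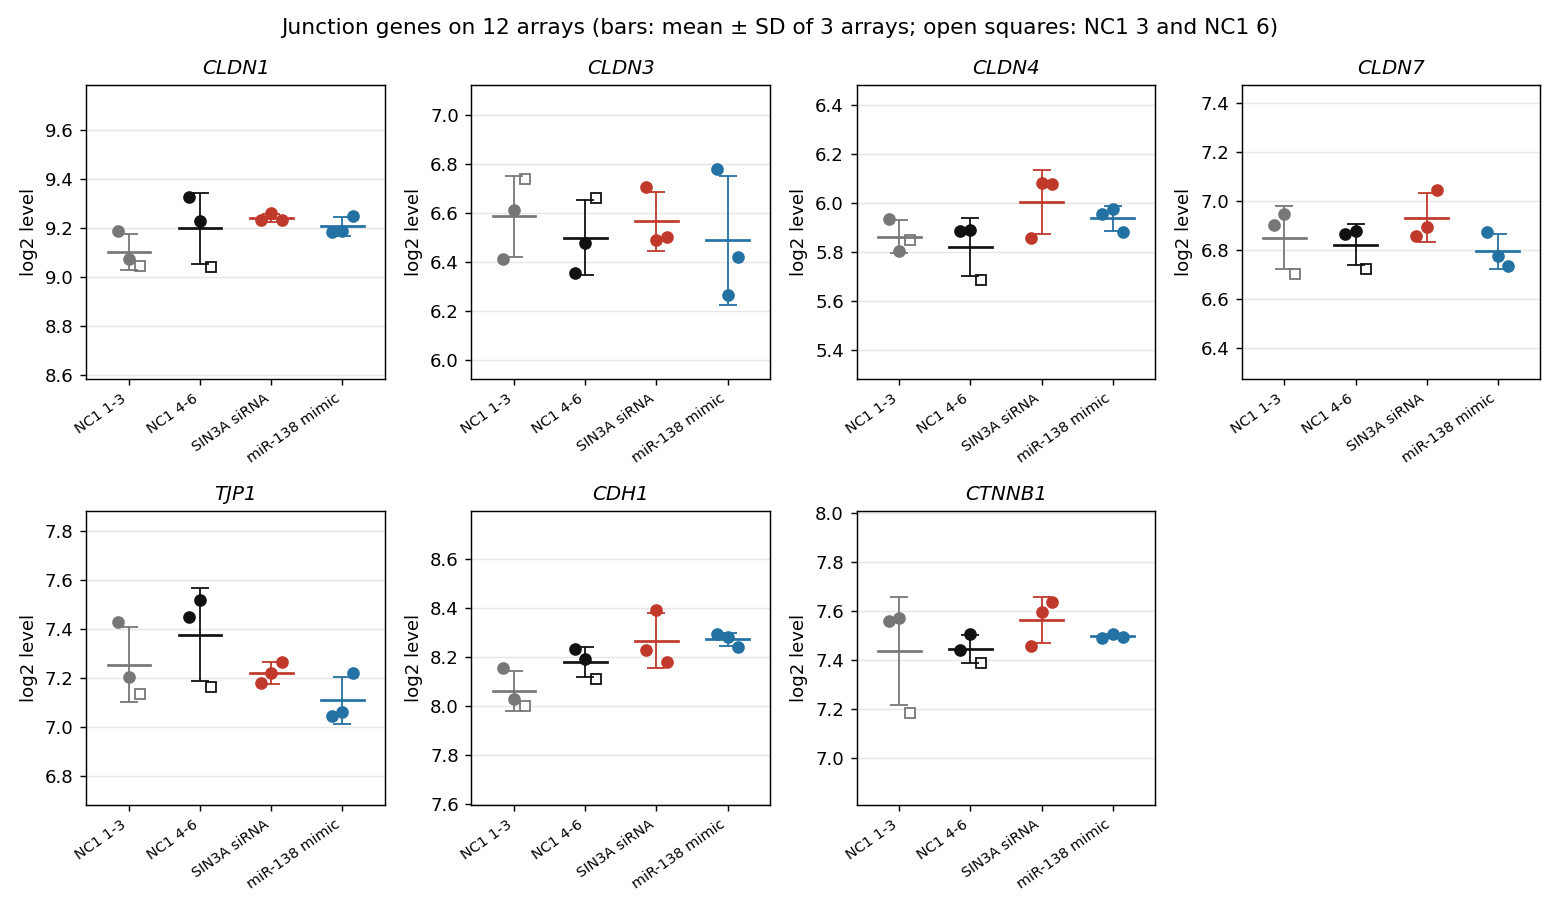
Log2 level (y axis, each panel spanning 1.2 units) of the 7 measured junction genes on every array, by group (x axis), with the mean and SD of 3 arrays as lines. Treated and NC1 arrays overlap for every gene, except that the 3 mimic arrays of CDH1 (8.24 to 8.29) lie above all NC1 arrays (up to 8.23). The open squares (NC1 3 and NC1 6) are the lowest of their part for CLDN1, CLDN7, TJP1, CDH1 and CTNNB1.

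CLDN1 encodes a sealing claudin that is needed for a tight barrier. Its level was 9.19, 9.08 and 9.05 on NC1 1 to 3 and 9.33, 9.23 and 9.04 on NC1 4 to 6. It was 9.23, 9.26 and 9.23 with SIN3A siRNA and 9.18, 9.19 and 9.25 with the miR-138 mimic. All treated arrays lay inside the range of the NC1 arrays. The log2 difference from all NC1 arrays was 0.09 for the siRNA (SE 0.08, limma adjusted p = 0.652) and 0.06 for the mimic (SE 0.08, limma adjusted p = 0.867).

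CLDN3, another barrier-forming claudin, had its widest spread on the mimic arrays. It was at 6.41, 6.61 and 6.74 on NC1 1 to 3 and at 6.36, 6.48 and 6.66 on NC1 4 to 6. The siRNA arrays held 6.70, 6.49 and 6.50, and the mimic arrays 6.78, 6.27 and 6.42. The first mimic array was the highest of all 12 and the second the lowest, so the mimic group spanned the whole range. The differences from NC1 were 0.02 for the siRNA (SE 0.12, limma adjusted p = 0.961) and -0.05 for the mimic (SE 0.12, limma adjusted p = 0.923), and both signs turned under some alternatives.

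CLDN4 encodes a claudin that limits the passage of cations and is found in many simple epithelia. Its values were 5.93, 5.80 and 5.85 on NC1 1 to 3 and 5.89, 5.89 and 5.68 on NC1 4 to 6. With the siRNA it stood at 5.85, 6.08 and 6.08, and with the mimic at 5.96, 5.98 and 5.88. SIN3A siRNA 2 and 3 and miR-138 mimic 1 and 2 were above all NC1 arrays, while 1 array of each treatment was not. CLDN4 showed the largest positive difference of the 7 genes with the siRNA, 0.16 (95% interval -0.0084 to 0.33), and it missed the test (limma adjusted p = 0.340). With the mimic the difference was 0.10 (-0.08 to 0.27, limma adjusted p = 0.743).

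CLDN7, a claudin that also occurs along the lateral membrane, was at 6.90, 6.95 and 6.70 on NC1 1 to 3 and at 6.86, 6.88 and 6.72 on NC1 4 to 6. It was at 6.86, 6.89 and 7.04 with the siRNA and at 6.88, 6.78 and 6.73 with the mimic. The third siRNA array was the highest of the 12, and the other treated arrays lay within the NC1 range. The difference from NC1 was 0.10 for the siRNA (SE 0.08, limma adjusted p = 0.637) and -0.04 for the mimic (SE 0.08, limma adjusted p = 0.912). The direct difference of mimic and siRNA, -0.14, was the largest of the 7 genes in that comparison (95% interval -0.34 to 0.06, limma adjusted p = 0.597).

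TJP1 encodes ZO-1, the adaptor that ties claudins and occludin to actin. On NC1 1 to 3 it was at 7.43, 7.20 and 7.13, and on NC1 4 to 6 at 7.45, 7.52 and 7.16. It was at 7.18, 7.22 and 7.26 with the siRNA and at 7.05, 7.06 and 7.22 with the mimic. The first and second mimic arrays were the lowest of all 12, and the third lay above NC1 2, NC1 3 and NC1 6. The mimic difference was the largest of the 7 genes, -0.21 (86.6% of the NC1 level, 95% interval -0.41 to -0.00067), with an unadjusted p of 0.0493 and an adjusted p of 0.437 (limma). With the siRNA it was -0.10 (SE 0.10, limma adjusted p = 0.712). Against NC1 4 to 6 alone the mimic difference was -0.27 (limma adjusted p = 0.273). Without NC1 3 and NC1 6 it was -0.38 and was called (limma adjusted p = 0.0370). Against NC1 1 to 3 it was -0.15 (limma adjusted p = 0.474) and was called after a second quantile normalization of the arrays (-0.28, limma adjusted p = 0.0451). The adjusted p over the 17 alternatives of each of these comparisons ran from 0.0370 to 0.680 for NC1 4 to 6 and from 0.0451 to 0.782 for NC1 1 to 3. Against all NC1 arrays the mimic difference ran from -0.29 to -0.15 over 19 alternatives and was called in none of them (limma adjusted p 0.0676 to 0.779). The end at -0.15 came with the replicate block, which in effect compares with NC1 1 to 3 only.

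CDH1 encodes E-cadherin, the adhesion receptor of the adherens junction. Its level was 8.15, 8.03 and 8.0 on NC1 1 to 3 and 8.23, 8.19 and 8.11 on NC1 4 to 6. With the siRNA it was 8.23, 8.39 and 8.18, and with the mimic 8.29, 8.28 and 8.24. The mimic arrays lay closely together and just above all NC1 arrays, which held for 1 of the 7 genes and for 6.42% of all genes in either direction. The siRNA arrays overlapped with NC1, as they did for all 7 genes, while 9.02% of all genes showed no overlap. The log2 differences were 0.15 with the siRNA (95% interval -0.02 to 0.31, limma adjusted p = 0.390) and 0.15 with the mimic (-0.02 to 0.32, limma adjusted p = 0.499). Against NC1 1 to 3 they were 0.21 and 0.21, with adjusted p of 0.208 and 0.168 (limma). Against NC1 4 to 6 they were 0.09 and 0.09, neither called. After a second quantile normalization the mimic difference from all NC1 arrays was 0.06 (limma adjusted p = 0.846).

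CTNNB1 encodes beta-catenin, which binds the tail of E-cadherin and also acts in Wnt signalling. It was at 7.56, 7.57 and 7.19 on NC1 1 to 3 and at 7.44, 7.51 and 7.39 on NC1 4 to 6. It was at 7.46, 7.60 and 7.64 with the siRNA and at 7.49, 7.51 and 7.50 with the mimic. NC1 3 was the lowest array, and the mimic arrays were nearly equal (SD 0.0080, n = 3). The differences from NC1 were 0.12 for the siRNA (SE 0.09, limma adjusted p = 0.574) and 0.06 for the mimic (SE 0.09, limma adjusted p = 0.890). Without NC1 3 the difference from NC1 1 to 3 turned from 0.13 to -0.0016 with the siRNA and from 0.06 to -0.067 with the mimic.

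**Figure D2:**
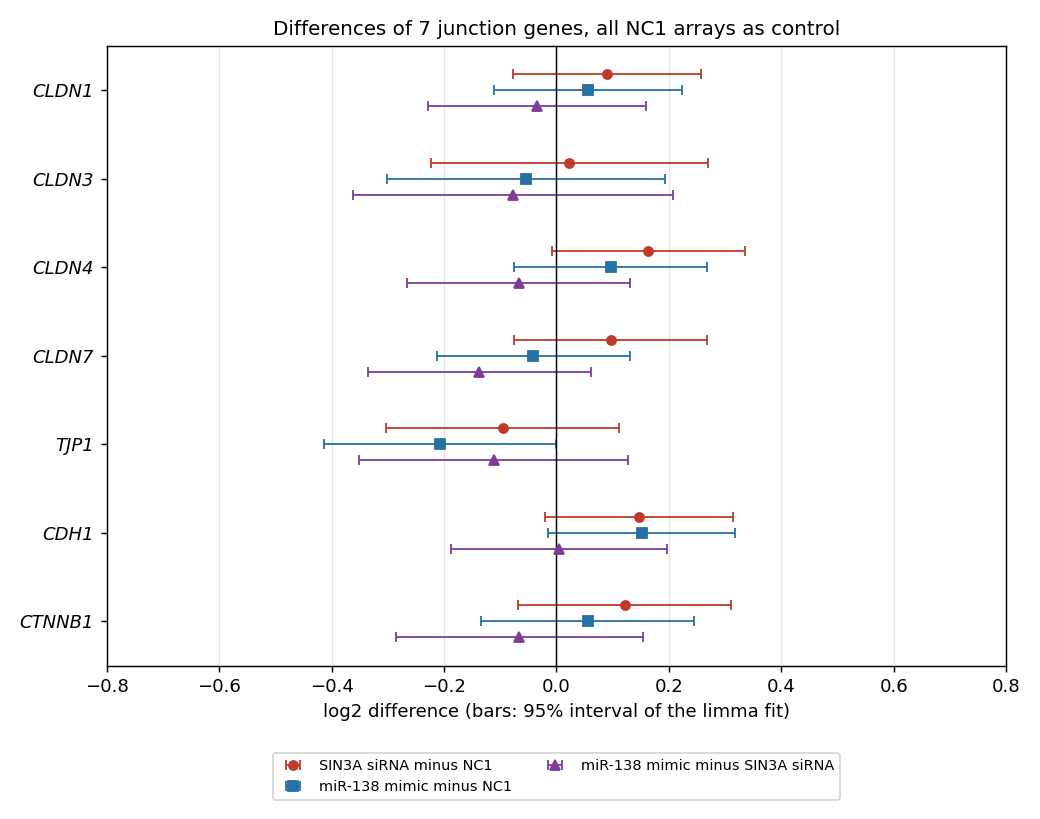
Log2 difference (x axis) of the 7 junction genes (y axis) for SIN3A siRNA and miR-138 mimic against all 6 NC1 arrays and for mimic against siRNA, with 95% intervals of the limma fit as bars. All but 1 of the intervals include 0, that of TJP1 with the mimic ending at -0.00067, and none reaches beyond -0.41 or 0.33.

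Between mimic and siRNA the 7 differences ran from -0.14 (CLDN7) to 0.0045 (CDH1), and the treated groups overlapped for each of the 7 genes, while 26.4% of all genes showed no overlap of 3 against 3 arrays. The median difference of the 7 genes was 0.096 with the siRNA, 0.055 with the mimic and -0.067 between the treatments, beside medians of -0.0054, -0.015 and -0.0074 over all genes. With the siRNA 6 of the 7 differences were above 0 and with the mimic 4. The order of the group means placed the mimic lowest for CLDN3, CLDN7 and TJP1 and an NC1 part lowest for the other genes, and no neighbours in these orders differed by the test.

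Between NC1 4 to 6 and NC1 1 to 3, 10% of all genes were called and 0 of the 7, at an unadjusted p under 0.05 also 0 of 7 (22.6% of all genes). The 7 differences between the parts lay between -0.088 (CLDN3) and 0.12 (TJP1), with 95% intervals from -0.36 to 0.35. Against single parts 0 of the 7 genes were called as well (limma). For the siRNA this compares with 5.70% of all genes (NC1 1 to 3) and 11.4% (NC1 4 to 6), and for the mimic with 8.55% and 3.49%. At an unadjusted p under 0.05 there was CDH1 for both treatments against NC1 1 to 3 and TJP1 for the mimic against NC1 4 to 6. Each is 1 of 7 genes (14.3%). The shares of all genes in these comparisons were 19.1% (siRNA) and 21.6% (mimic) for NC1 1 to 3 and 12.3% for the mimic and NC1 4 to 6.

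**Figure D3:**
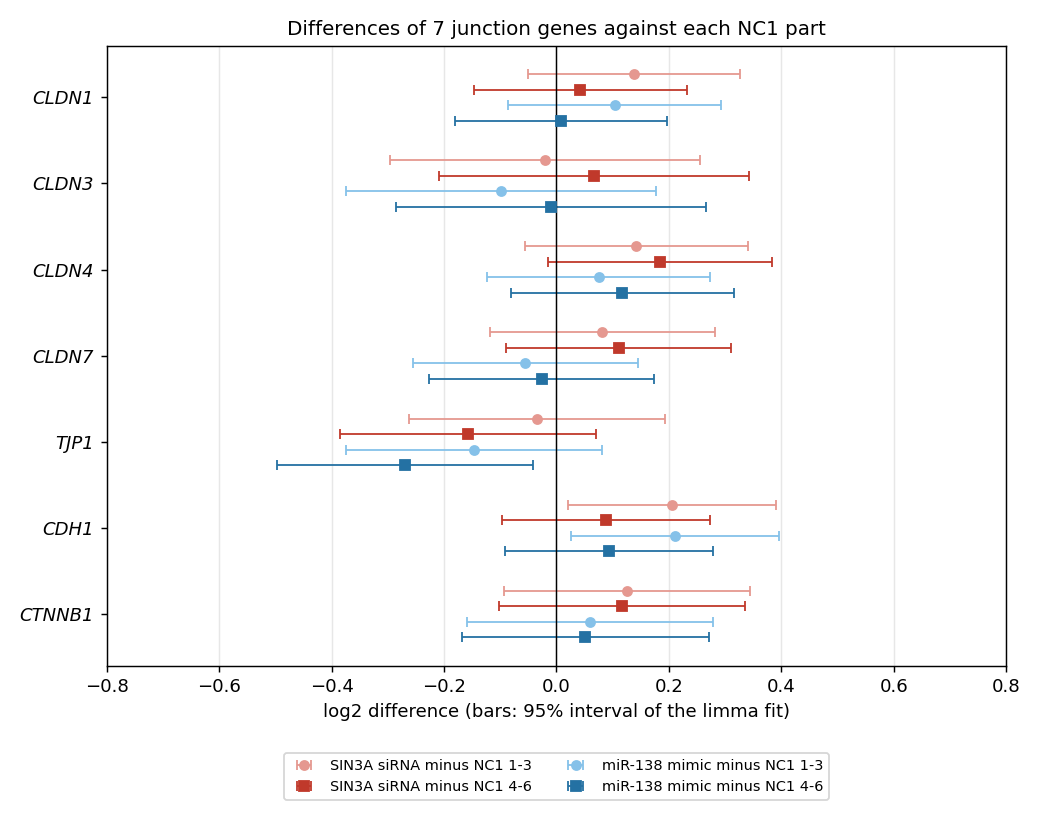
Log2 difference (x axis) of the 7 junction genes (y axis) for each treatment against NC1 1 to 3 (circles) and NC1 4 to 6 (squares), with 95% intervals of the limma fit as bars. The intervals against both parts overlap for every gene, and those that leave out 0 are CDH1 against NC1 1 to 3 with both treatments and TJP1 with the mimic against NC1 4 to 6.

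Further genes of the junctions and of the epithelial state were counted from 5 lists, 80 measured genes of 84 listed. With SIN3A siRNA 2 of the 80 were called (2.50%, against 4.01% of all genes), with the mimic 0 (against 1.04%) and between the treatments 1 (1.25%, against 1.57%). At an unadjusted p under 0.05 there were 18, 11 and 11 of the 80 (22.5%, 13.8% and 13.8%), where 16.4%, 11.3% and 13.6% of all genes lay. The medians of the 80 genes were -0.014, -0.020 and 0.0032. Among 20 further membrane proteins of tight junctions, among them claudins, tricellulin and the JAM proteins, 0 were called in these 3 comparisons (5, 4 and 2 at an unadjusted p under 0.05, limma, or 25.0%, 20.0% and 10% beside those shares of all genes). Of 17 plaque and polarity proteins 0 were called as well (1, 1 and 2 at an unadjusted p under 0.05, or 5.88%, 5.88% and 11.8%), and of 17 further adherens junction proteins also 0 (5, 1 and 3, or 29.4%, 5.88% and 17.6%).

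DSC3, a desmosomal cadherin of stratified epithelia, fell with the siRNA and was the 1 of 12 desmosome genes called against all NC1 arrays (8.33%, against 4.01% of all genes). Its level was 5.59, 5.61 and 5.59 on NC1 1 to 3, 6.08, 6.04 and 5.74 on NC1 4 to 6, 4.96, 5.50 and 5.18 with the siRNA and 5.84, 5.84 and 5.78 with the mimic. All 3 siRNA arrays were below all NC1 arrays, as for 3.53% of all genes, with a log2 difference of -0.57 (SE 0.13, limma adjusted p = 0.0283). The call was lost without SIN3A siRNA 1 (-0.44, limma adjusted p = 0.162) or SIN3A siRNA 3 (-0.55, limma adjusted p = 0.129), and the adjusted p over 19 alternatives ran from 0.0179 to 0.162. With NC1 1 to 3 as the control, which is also the value with the array set as a block (NC1 1 to 3 set with the siRNA, NC1 4 to 6 with the mimic, a grouping the labels do not state), it was -0.39 and not called (limma adjusted p = 0.0780), and with NC1 4 to 6 it was -0.74 and called.

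RHOC, a GTPase that acts on actin at cell contacts and a reported miR-138 target in other cells, was the 1 of 14 genes on the list of the epithelial to mesenchymal transition called with the siRNA against all NC1 arrays and between the treatments (7.14% each, against 4.01% and 1.57% of all genes). It was at 6.71, 6.40 and 6.35 on NC1 1 to 3, at 6.42, 6.41 and 6.42 on NC1 4 to 6, at 6.70, 6.84 and 6.84 with the siRNA and at 6.33, 6.23 and 6.49 with the mimic. The siRNA arrays were above all others except NC1 1. It rose with the siRNA by 0.34 (SE 0.09, limma adjusted p = 0.0491) and was lower with the mimic than with the siRNA by -0.44 (SE 0.10, limma adjusted p = 0.0496). The difference of mimic from NC1 was -0.10 (SE 0.09, limma adjusted p = 0.769). Leaving out any array but NC1 1 ended the first call (limma adjusted p up to 0.209), and any array but NC1 1 and NC1 3 the second (up to 0.200). Without both NC1 3 and NC1 6 the siRNA difference was 0.31 (limma adjusted p = 0.0961). With the array set as a block neither was called, at 0.31 (limma adjusted p = 0.101) and -0.37 (limma adjusted p = 0.263). Against NC1 4 to 6 alone RHOC was called higher with the siRNA, with means of 6.79 ± 0.08 (siRNA) and 6.42 ± 0.0054 (NC1 4 to 6, SD, n = 3 each). That call was not traced through the alternatives.

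Of the 80 further genes 10 differed between NC1 4 to 6 and NC1 1 to 3 (12.5%), a share near the 10% of all genes. DSC2, a desmosomal cadherin of simple epithelia, was at 7.44, 7.27 and 7.40 on NC1 1 to 3 and at 8.01, 7.90 and 7.92 on NC1 4 to 6. It was at 7.64, 7.64 and 7.70 with the siRNA and at 8.13, 8.29 and 8.21 with the mimic. The 4 sets of 3 arrays did not overlap, and the share of all genes with 4 such sets was not counted. Mimic arrays above all NC1 arrays were seen for 3.89% of all genes. With the mimic DSC2 was higher by 0.84 than on NC1 1 to 3 (SE 0.09, limma adjusted p = 1.7e-05). Its difference from NC1 4 to 6 was 0.27, which missed the test (limma adjusted p = 0.120). With the siRNA DSC2 lay between the control parts. It was 0.29 above NC1 1 to 3, which missed the test (limma adjusted p = 0.0581), and 0.0038 from all NC1 arrays (limma adjusted p = 0.993). Its difference from NC1 4 to 6 was -0.28 (limma adjusted p = 0.0410), a call lost without any siRNA or NC1 4 to 6 array or without miR-138 mimic 2 or 3 (limma adjusted p up to 0.157).

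The desmosomal plaque gene PKP2, the plakoglobin gene JUP and NECTIN3, an adhesion receptor of adherens junctions, showed the same order of the control parts. JUP was at 6.71, 6.64 and 6.72 on NC1 1 to 3, at 7.05, 7.28 and 7.35 on NC1 4 to 6, at 6.87, 6.94 and 6.78 with the siRNA and at 7.22, 7.23 and 7.30 with the mimic. NECTIN3 had means of 7.78, 8.54, 7.80 and 8.40 in the same sequence of groups, with SD of 0.21, 0.26, 0.11 and 0.10 (n = 3 each). The mimic arrays were thus near NC1 4 to 6 and the siRNA arrays nearer to NC1 1 to 3. Against NC1 1 to 3 the mimic differences were 0.45 for PKP2, 0.56 for JUP and 0.61 for NECTIN3, each called. Against NC1 4 to 6 the siRNA differences were -0.30, -0.36 and -0.74, each called. The siRNA against NC1 1 to 3 and the mimic against NC1 4 to 6 were not called for these 3 genes. Of these calls, that of PKP2 with the siRNA was lost without any siRNA array, NC1 4, NC1 5 or miR-138 mimic 3 (limma adjusted p up to 0.151), and that of JUP without SIN3A siRNA 3, NC1 5 or NC1 6 (up to 0.0733).

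JAM3, a junctional adhesion molecule, had values of 4.51, 4.82 and 4.87 on NC1 1 to 3, and the other 9 arrays lay between 4.09 and 4.27. It was lower than on NC1 1 to 3 in both treatments, with differences of -0.58 for the siRNA (SE 0.10, limma adjusted p = 0.00300) and -0.51 for the mimic (SE 0.10, limma adjusted p = 0.00414), and NC1 4 to 6 differed from NC1 1 to 3 by about as much (-0.53, SE 0.10). JAM3 was among the 30% of genes with the lowest means. VIM, vimentin, the intermediate filament of mesenchymal cells, was at 6.55 to 6.63 on NC1 1 to 3, at 7.23 to 7.29 on NC1 4 to 6, at 6.47 to 6.51 with the siRNA and at 6.73 to 6.89 with the mimic. It was below NC1 4 to 6 in both treatments, with differences of -0.78 for the siRNA and -0.46 for the mimic, both called. Against NC1 1 to 3 the differences were -0.11 and 0.20, and against all NC1 arrays -0.44 and -0.13, none of them called (limma adjusted p 0.493, 0.148, 0.174 and 0.847). KLF4, a transcription factor of epithelial differentiation, was at 4.99 to 5.23 on NC1 1 to 3, at 4.43 to 4.92 on NC1 4 to 6, at 5.26 to 5.44 with the siRNA and at 5.26 to 5.39 with the mimic. The siRNA and mimic arrays were above all NC1 arrays, as for 5.49% and 3.89% of all genes. They lay most of all above NC1 4 to 6, with differences of 0.67 and 0.68, both called. They were 0.23 and 0.23 above NC1 1 to 3 and 0.45 and 0.46 above all NC1 arrays, none of them called (limma adjusted p 0.294, 0.255, 0.0990 and 0.178).

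**Figure D4:**
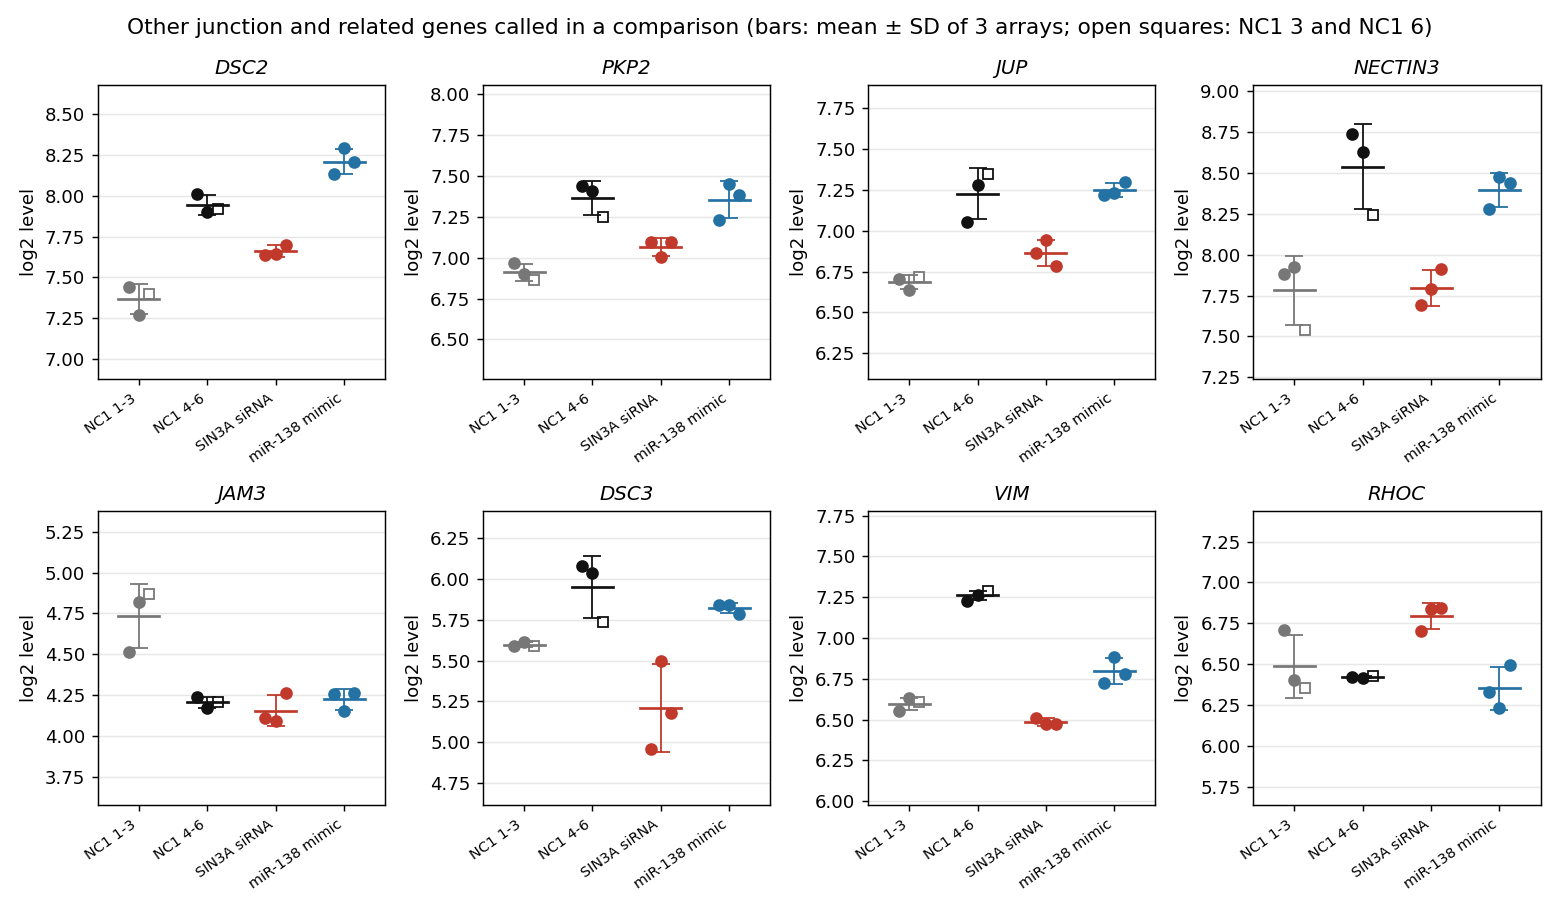
Log2 level (y axis, each panel spanning 1.8 units) on every array of 8 further junction or related genes that were called in a comparison, by group (x axis), with the mean and SD of 3 arrays as lines. DSC2, PKP2, JUP and NECTIN3 are higher on NC1 4 to 6 and mimic arrays than on NC1 1 to 3, JAM3 is high on NC1 1 to 3 alone, VIM is highest on NC1 4 to 6, and DSC3 and RHOC differ most in the siRNA group.

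Calls against a single part of the control were made for further genes of the lists. Against NC1 1 to 3 the siRNA arrays were higher in VCL, which encodes the actin linker vinculin (0.30), and in the polarity gene PARD3 (0.43), and the mimic arrays lower in CLDN10 (-0.72) and in ZEB2 (-0.43), a repressor of CDH1 and a reported miR-138 target. Against NC1 4 to 6 the siRNA arrays were higher in MARVELD2, which encodes tricellulin (0.54), LIMA1 (0.39), whose protein binds actin, and NECTIN2 (0.33), an adhesion receptor, and lower in CDH2, the N-cadherin gene (-0.39), CTNND2 (-0.36) and the epithelial transcription factor genes GRHL2 (-0.39) and ELF3 (-0.38). The mimic arrays were lower in PKP4 (-0.42) and EZH2 (-0.57). None of these genes was called against the other part with the same treatment. From NC1 1 to 3 the siRNA differences were 0.26 (MARVELD2), 0.066 (LIMA1), 0.15 (NECTIN2), -0.14 (CDH2), -0.19 (CTNND2), -0.21 (GRHL2) and -0.15 (ELF3). CLDN10 and ZEB2 averaged 4.44 and 4.40 with the mimic and 4.82 and 4.52 on NC1 4 to 6. PKP4 and EZH2 averaged 6.67 and 6.86 with the mimic and 6.92 and 7.05 on NC1 1 to 3. In all, 3 of the 80 genes were called with NC1 1 to 3 as the control and 15 with NC1 4 to 6 for the siRNA (5.70% and 11.4% of all genes), 2 and 5 of them higher and 1 and 10 lower, and 7 and 4 with the mimic (8.55% and 3.49% of all genes), 4 and 1 higher and 3 and 3 lower. LIMA1 and NECTIN2 were added after their values were seen, and their calls were not traced through the alternatives. Of the other genes in this paragraph CLDN10 alone kept its call in all of its 17 alternatives. Leaving out NC1 2 or NC1 3 ended the calls of VCL, PARD3 and ZEB2 (limma adjusted p up to 0.163, 0.104 and 0.218 over their alternatives). So did leaving out SIN3A siRNA 2 or 3 for PARD3, miR-138 mimic 1 or 2 for ZEB2, and each array but NC1 1 and NC1 6 for VCL. Without both NC1 3 and NC1 6 the calls were also lost for VCL (0.23, limma adjusted p = 0.107), PARD3 (0.33, limma adjusted p = 0.0607), ZEB2 (-0.30, limma adjusted p = 0.112) and CTNND2 (-0.29, limma adjusted p = 0.0693). With the siRNA, the call of MARVELD2 was lost without SIN3A siRNA 1 or NC1 6 (up to 0.0871), that of CDH2 without SIN3A siRNA 1, SIN3A siRNA 2, NC1 4 or NC1 5 (up to 0.123), and that of CTNND2 without SIN3A siRNA 3, NC1 4 or NC1 6 (up to 0.130). GRHL2 lost it without SIN3A siRNA 3, NC1 4 or NC1 5 (up to 0.117) and ELF3 without SIN3A siRNA 1, NC1 4 or NC1 5 (up to 0.0786). With the mimic, PKP4 lost it without NC1 5 or miR-138 mimic 1 (up to 0.0693) and EZH2 without NC1 4, NC1 5 or miR-138 mimic 3 (up to 0.0619). ZEB2 and CDH2 were among the 30% of genes with the lowest means, and ZEB2 was at -0.19 as the mean of its probe sets (limma adjusted p = 0.218). CDH2 read 4.556 on NC1 2, NC1 3, NC1 6 and all mimic arrays. Its SD with the mimic was thus 0 (n = 3), which lowers the spread that enters its test.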

How the data were processed

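Levels were measured on 12 arrays of Calu-3 RNA (5 µg labelled per array, per the labels). The authors deposited log2 values per probe set. RMA and Partek 6.3 are named, per the submitters' processing notes, without their roles. The sources used here state no genome build or annotation. Values ran from 1.43 to 13.2. Arrays give no counts, so their number limits the precision (median SE of a log2 difference from NC1 0.10).

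Of 33297 probe sets 19460 carried 1 gene symbol in the platform annotation, 1754 several and 12083 none. Each of 18417 genes was read from its brightest probe set among those with 1 symbol. All 12 arrays were fitted in limma 3.58.1 (R 4.3.3) with 3 group means (9 residual degrees of freedom), and again with NC1 1 to 3 and NC1 4 to 6 as separate groups (8). The labels do not state these parts. Their difference was seen in the values first. Called means a Benjamini-Hochberg adjusted p under 0.05 over all genes, standard errors and 95% intervals are those of the fit, and the fit was tested on simulated data. The members and lists were chosen with earlier results of these data known. All 7 measured members were described, and of the 5 further lists up to 4 called genes per comparison with NC1 or between treatments. Alternatives were the mean of all probe sets, a second quantile normalization, no dim genes, another variance prior, blocks, leaving out each array, and, chosen after seeing the data, leaving out NC1 3 and NC1 6. Replicate numbers 1 to 3 were checked for pairing: deviations of arrays with the same number from their group mean correlated at -0.08 to 0.05. For NC1 that mean was over all NC1 arrays, so its deviations also held the difference between the parts. NC1 4 to 6 were not compared with treated arrays in this check. It can therefore not decide on pairing, and the main fit did not take the numbers as pairs.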

Additional observations from a re-analysis of the deposited data

Results flagged for a closer look

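RHOC differed between the treatments in the test of the difference itself (miR-138 mimic minus SIN3A siRNA -0.441 on the log2 scale, SE 0.10, limma adjusted p = 0.0496, n = 3 against 3, all mimic arrays below all siRNA arrays). No overlap of mimic and siRNA arrays was seen for 26.4% of all genes, and 13.1% of all genes were lower in this way. The limma adjusted p of RHOC ran from 0.0272 to 0.263 over 19 alternatives. The call was lost with the array set as a block (-0.37, limma adjusted p = 0.263), with the replicate block (limma adjusted p = 0.0577) and with the other variance prior (limma adjusted p = 0.0579). For the 7 junction genes a check of each NC1 array against the other 5 listed none. Arrays that stray together, as NC1 3 and NC1 6 did, can be missed by such a check. For CTNNB1 NC1 3 was at 7.19, while the other NC1 arrays were at 7.39 to 7.57. None of the 7 genes differed between the treatments by the test (limma adjusted p 0.597 to 0.994).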

How the results depend on the processing

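Of 994 values of the 7 junction genes under the alternatives, 935 kept direction and side of the threshold, 57 changed sign without a call and 2 were newly called. In the comparisons with a single part the count of called genes among the 7 was thus 1 for the mimic against NC1 1 to 3 after the second quantile normalization and 1 against NC1 4 to 6 without NC1 3 and NC1 6, TJP1 each time. Every other count for the 7 genes was 0 under all alternatives. The causes of the changes below were not tested.

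The second quantile normalization turned differences that were small and not called. CLDN3 with the siRNA became -0.031. With the mimic CLDN1 became -0.034 (all NC1), -0.046 (NC1 1 to 3) and -0.022 (NC1 4 to 6), and CTNNB1 -0.015 (all NC1) and -0.080 (NC1 1 to 3). With the siRNA and NC1 1 to 3, CLDN7 became -0.029 and CTNNB1 -0.018. CDH1 between the treatments became -0.055. Between the NC1 parts CLDN1 became -0.024, TJP1 -0.0041, CDH1 -0.052 and CTNNB1 -0.13. Of the other 80 junction genes 2 were called with the mimic, 2 between the treatments and 11 with the mimic against NC1 1 to 3.

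Without NC1 3 and NC1 6, CLDN3 turned to 0.025 (mimic), 0.055 (siRNA, NC1 1 to 3) and 0.071 (mimic, NC1 4 to 6). CTNNB1 turned to -0.022 (mimic), -0.0016 (siRNA, NC1 1 to 3), -0.067 (mimic, NC1 1 to 3) and -0.091 (between the parts). CLDN1 turned to -0.036 (siRNA, NC1 4 to 6) and -0.070 (mimic, NC1 4 to 6), and CLDN4 to 0.020 (between the parts). Of the 80 genes 1 was called with the siRNA, 3 with the mimic, 2 between the treatments and 1 with the siRNA against NC1 1 to 3.

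No treated array shares a replicate number with the NC1 arrays outside NC1 1 to 3. The replicate block therefore compared both treatments with NC1 1 to 3 only, which is a change of control. Its differences, such as -0.15 for TJP1 with the mimic, equal those from NC1 1 to 3. With the replicate block CLDN3 was at -0.021 with the siRNA. Of the 80 genes 1 was called with the siRNA, 8 with the mimic and 4 between the treatments. DSC3 with the siRNA was not called there (-0.39, limma adjusted p = 0.0884), nor was RHOC (0.31, limma adjusted p = 0.191). With the array set as a block CLDN3 was at -0.021 with the siRNA and 0.010 between the treatments. There CDH1 was at -0.11 and SIN3A at -0.53 between the treatments, and of the 80 genes 4 were called with the mimic. The blocks changed no call of the 7 genes. The other variance prior called 1 of the 80 genes with the siRNA and 0 between the treatments, and leaving out dim genes called 2 between the treatments.

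Leaving out each array in turn, CLDN3 ranged from -0.046 to 0.062 with the siRNA, -0.20 to 0.057 with the mimic and -0.22 to 0.034 between the treatments. CLDN3 with the siRNA ranged from -0.11 to 0.055 (NC1 1 to 3) and from -0.0043 to 0.15 (NC1 4 to 6), and with the mimic from -0.24 to 0.014 and from -0.16 to 0.10. CDH1 between the treatments ranged from -0.040 to 0.068 and SIN3A from -0.036 to 0.13. For NC1 1 to 3, TJP1 with the siRNA ranged from -0.095 to 0.052, and CTNNB1 from -0.0016 to 0.19 with the siRNA and from -0.067 to 0.13 with the mimic. For NC1 4 to 6, CLDN1 ranged from -0.036 to 0.11 with the siRNA and from -0.070 to 0.072 with the mimic, and CLDN7 with the mimic from -0.075 to 0.0038. Between the NC1 parts the ranges were -0.077 to 0.026 for CLDN4, -0.10 to 0.020 for CLDN7 and -0.12 to 0.075 for CTNNB1. Of the 80 genes 0 to 4 were called with the siRNA, 0 to 2 with the mimic and 0 to 3 between the treatments. For single parts it was 1 to 6 (NC1 1 to 3) and 6 to 16 (NC1 4 to 6) with the siRNA, and 2 to 4 with the mimic (NC1 4 to 6).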

Other observations

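Probe set 8105908, which the platform annotation assigns to OCLN together with its pseudogene OCLNP1, was not used as a gene. Its level was 8.05, 7.78 and 7.30 on NC1 1 to 3, 8.09, 8.22 and 7.72 on NC1 4 to 6, 7.17, 7.24 and 7.29 with SIN3A siRNA and 7.58, 7.72 and 7.68 with the miR-138 mimic. All 3 siRNA arrays were below all NC1 arrays, NC1 3 by the narrowest margin. Among the 18417 genes this held for 3.53%, and the share over all probe sets was not counted. In a limma fit over all 33297 probe sets the siRNA difference from NC1 was -0.63 (SE 0.16, adjusted p = 0.0797, where 1.43% of probe sets were called). Against NC1 4 to 6 it was -0.77 and called (limma adjusted p = 0.0162, 8.42% of probe sets called), and against NC1 1 to 3 it was -0.48 and not called (limma adjusted p = 0.186, 2.19% called). With the mimic it was -0.20 (limma adjusted p = 0.773, 0.285% called).

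Probe set 7940079, assigned to CTNND1 and to the read-through gene TMX2-CTNND1, was at 8.98, 9.02 and 8.74 on NC1 1 to 3 and at 9.36, 9.45 and 9.29 on NC1 4 to 6. It was at 9.03, 8.99 and 8.90 with the siRNA and at 9.20, 9.21 and 9.32 with the mimic. It differed between the parts of the control (0.45, limma adjusted p = 0.0106, 7.68% of probe sets called), and from all NC1 arrays neither treatment was called (-0.17 and 0.11, limma adjusted p 0.663 and 0.874). The siRNA arrays were below NC1 4 to 6 by a called difference of -0.39 (limma adjusted p = 0.0203, 8.42% of probe sets called) and 0.060 from NC1 1 to 3 (limma adjusted p = 0.805). The mimic arrays differed by 0.33 from NC1 1 to 3 (limma adjusted p = 0.0535, 6.14% called) and by -0.12 from NC1 4 to 6 (limma adjusted p = 0.822).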
